A study of Mus musculus with 6 samples.

Results

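Messenger RNA levels of 34 genes of the splicing machinery were measured in MYC-driven mouse liver tumors after treatment with GSK3326595, which inhibits the arginine methyltransferase PRMT5, and after vehicle. The genes were taken by symbol from a list of Sm and LSm proteins, U1 snRNP proteins, SR proteins and their kinases, core splicing factors, a pair of hnRNPs and assembly factors of spliceosomal snRNPs. All 34 of the 34 listed genes were found among the 47643 genes of the deposited table, and all 34 passed the filter on low counts that left 17012 genes for testing. The tumors grew in LAP-tTA-tetO-MYC mice of the FVB/N strain, in which a liver promoter drives the transactivator and doxycycline keeps the MYC transgene off. Mice of both groups drank doxycycline at 100 mg/L up to the age of 4 weeks, and withdrawal then left MYC on for 8 weeks. The 3 GSK3326595 libraries came from tumors of MYC-on mice dosed at 50 mg/kg/day over 2 weeks, and the 3 vehicle libraries from MYC-on mice given vehicle over the same 2 weeks. Livers with MYC off were not analysed here. The labels do not say whether each library came from a separate mouse. The p-values are therefore set against the spread between libraries, which may not be the spread between mice.

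Spliceosomal snRNPs are built around a ring of Sm proteins on each small nuclear RNA. PRMT5, with its partners Wdr77 and Clns1a, places symmetric dimethyl marks on the arginine-glycine tails of SmB, SmD1 and SmD3, and the SMN complex then loads the ring onto the RNA. SR proteins bind exonic enhancers and are phosphorylated by CLK and SRPK kinases, while hnRNPs often repress splice sites. Many of these genes adjust their own mRNA level through poison exons or retained introns, and MYC is known to raise expression of several of them. The table holds 1 value per gene, so splice forms and intron retention were not analysed here.

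The libraries held from 25814339 to 33621083 expected counts, and the members together took from 0.350% to 0.607% of them. Alb, the main secreted protein of hepatocytes, lay between 3157 and 11714 CPM in the GSK3326595 tumors and between 4985 and 11944 CPM in the vehicle tumors. CPM are counts scaled to a common library size after TMM normalization and are not divided by gene length. Prmt5, the target of the drug, had 51.3, 96.0 and 129.9 CPM in the GSK3326595 tumors, against 69.9, 48.9 and 84.9 CPM in the vehicle tumors, a fitted log2 difference of 0.44 (SE 0.37; adjusted p = 0.753 by edgeR), and the groups overlapped. That difference was 0.14 with GSK3326595 replicate 3 left out and 0.73 with GSK3326595 replicate 1 left out, where it was past an unadjusted p under 0.05. An inhibitor need not alter the mRNA of its target, so this value does not check the labels. GSK3326595 replicate 3 stood apart, with the lowest summed hepatocyte markers and the highest summed proliferation markers of the 6 libraries. GSK3326595 replicate 2 also stood apart, with Cyp3a11, a hepatocyte enzyme, at 1114 CPM against 152 CPM or less in the other 5 libraries, and the noncoding RNA Meg3 at 8.68 CPM against 96.1 CPM or more. Vehicle replicate 2 stood apart in its neutrophil markers, which summed to 155.9 CPM against 11.3 CPM or less in the other 5 libraries. In bulk tissue, fewer cells of a type and less RNA per cell cannot be told apart.

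Promoter sequence of the 250 bases before the start was taken from RefSeq (GRCm38.p6), which held a window for 29 of the 34 genes; Snrpb, Snrpd1, Lsm4, Clk1 and U2af2 had none. The windows were searched on both strands for 6 motifs chosen with the values known. The E-box of MYC, CACGTG, was in the window of 1 gene, Snrpa, or 3.4% of the members with a window, beside 6.86% of all 27025 genes. The cAMP response element, TGACGTCA, was in 5 members (17.2%; Clk4, Lsm2, Snrpa, Snrpg and Tra2a), beside 1.77% of all genes. The CCAAT box was in 13 (44.8%, beside 37.49%), the GC box GGGCGG in 20 (69.0%, beside 35.36%), the AP-1 motif TGANTCA in 2 (6.9%, beside 7.82%) and the ETS motif CCGGAAG in 6 (20.7%, beside 7.83%). None of the motifs holds another whole. A gene was counted if any of its windows held the motif. The 27025 genes were not limited to those past the filter on low counts, while all the members had passed it. The shares thus compare unlike sets of genes. These matches describe letters in a window, not binding sites.
The window of Snrpa is shown because it alone held the MYC E-box, in capitals in 2 copies, with its TGACGTCA left in lower case (chr7:27196272-27196521, minus strand), and the 67 bases before the RefSeq start of Clk4 because that gene has the smallest p of the 34 members, with TGACGTCA in capitals (chr11:51263047-51263113, plus strand). GENCODE places the start of Clk4 upstream of this stretch, which lies in none of its annotated exons.
Snrpa: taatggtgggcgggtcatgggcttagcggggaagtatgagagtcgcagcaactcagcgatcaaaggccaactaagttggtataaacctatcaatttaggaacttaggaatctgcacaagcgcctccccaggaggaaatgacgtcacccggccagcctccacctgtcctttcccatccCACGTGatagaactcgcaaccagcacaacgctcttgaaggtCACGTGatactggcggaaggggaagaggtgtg
Clk4: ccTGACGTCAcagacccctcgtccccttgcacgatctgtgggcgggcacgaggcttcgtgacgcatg

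None of the 34 splicing genes differed between GSK3326595 and vehicle by edgeR's quasi-likelihood test adjusted over all 17012 genes, with 0 higher and 0 lower, as for the whole table (0.0% of genes higher and 0.0% lower). DESeq2 and limma-voom also called 0 members; DESeq2 called 1.09% of all genes higher and 0.588% lower. At an unadjusted edgeR p under 0.05, 0 members were higher, beside 5.45% of all genes, and 1 was lower, Clk4, beside 3.81%. The values of the groups did not overlap in 2 members, Clk1 and Clk4, both lower, beside 7.66% of all genes lower without overlap; 0 members were higher without overlap, beside 6.72%. The fitted log2 difference was above 0 in 23 members and below 0 in 11, from -0.45 for Clk4 to 0.57 for Lsm2.

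The median log2 difference of the members was 0.06, beside 0.03 for all genes tested. It was -0.11 without GSK3326595 replicate 3 and -0.02 without vehicle replicate 2, against 0.22 without GSK3326595 replicate 1 and 0.23 without vehicle replicate 3. The 95% interval of the difference lay within 1 log2 unit of 0 on both sides in 26 of the 34 genes. A rise by 1 log2 unit or a fall by 1 log2 unit was inside the interval for Snrpd1, Snrpd3, Snrpf, Lsm2, Srsf5, Hnrnpa1, Smn1 and Coil.

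**Figure D1:**
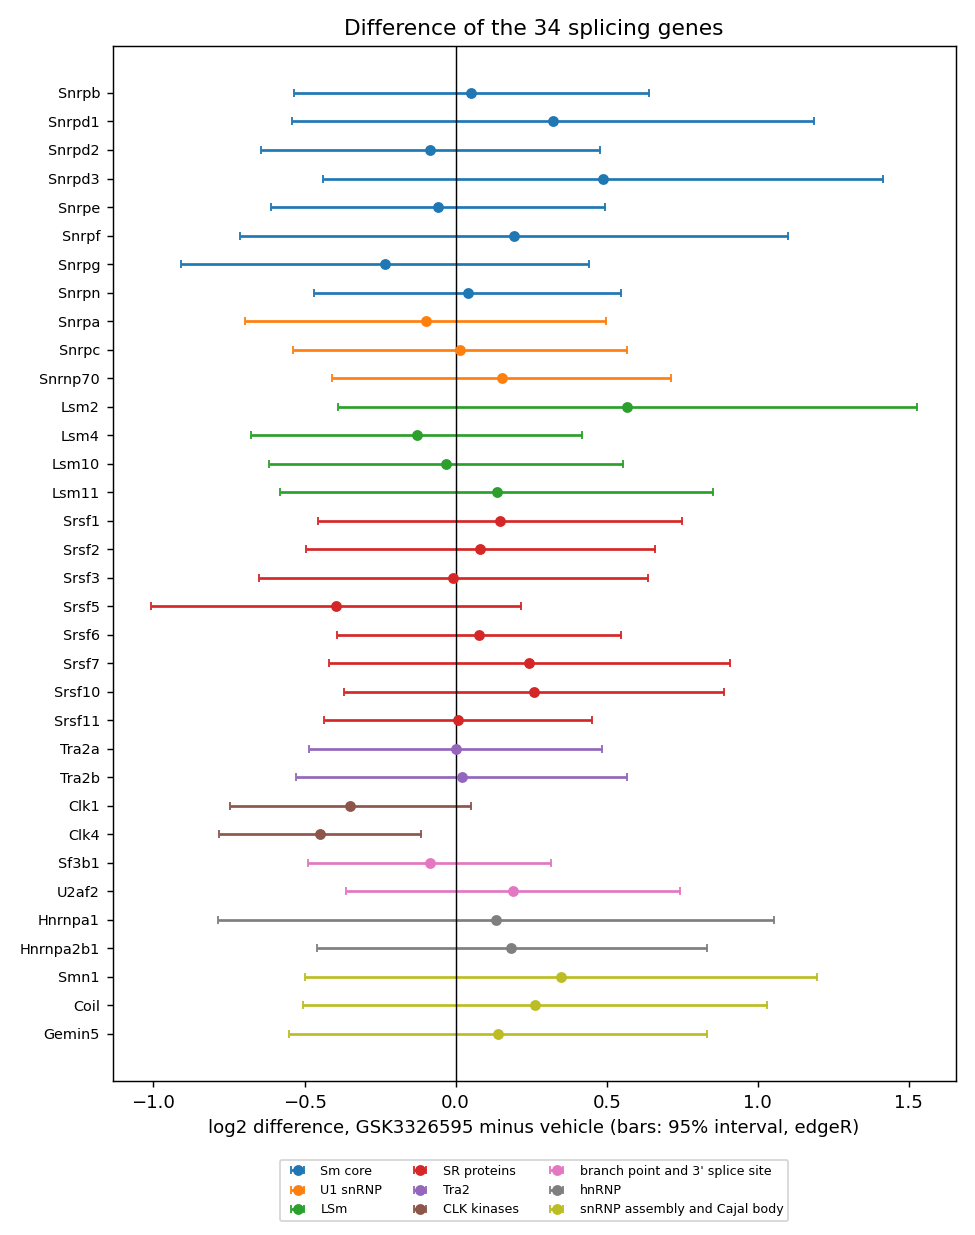
Log2 difference, GSK3326595 minus vehicle, of each of the 34 genes, coloured by role, with 95% intervals from edgeR (3 libraries a group). The interval of Clk4 (-0.78 to -0.11) alone leaves out 0, before any adjustment for the number of genes, and the longest is that of Lsm2 (-0.39 to 1.53).

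The kinases Clk1 and Clk4, which phosphorylate SR proteins in the nucleus of the cell, were the members whose groups did not overlap. Clk4 (chr11:51261730-51281766, plus strand) had 56.5, 59.5 and 52.4 CPM in the GSK3326595 tumors, against 75.9, 75.2 and 78.7 CPM in the vehicle tumors. All 3 treated tumors lay below all 3 vehicle tumors without overlap. Its mean was 56.2 ± 3.56 CPM in GSK3326595 and 76.6 ± 1.85 CPM in vehicle (SD, n = 3 each), a fitted log2 difference of -0.45 (SE 0.14; adjusted p = 0.504 by edgeR) with an unadjusted p of 0.016. Without any 1 library the difference stayed between -0.46 and -0.38. Its unadjusted p was 0.0638, 0.0523 and 0.0769 without vehicle replicates 1, 2 and 3, and 0.0261, 0.0262 and 0.037 without GSK3326595 replicates 1, 2 and 3. It was 0.0578 with no scaling beyond library totals.

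Clk1 (chr1:58410189-58424066, minus strand) had 131, 102 and 118 CPM in the GSK3326595 tumors, against 137, 154 and 156 CPM in the vehicle tumors. The treated tumors again lay below the vehicle tumors, with GSK3326595 replicate 1 close to vehicle replicate 1. Clk1 had a fitted log2 difference of -0.35 (SE 0.17; adjusted p = 0.572 by edgeR); it was -0.21 without GSK3326595 replicate 2 and -0.44 without GSK3326595 replicate 1. Other kinases of SR proteins were measured beside them: Clk2 had a fitted log2 difference of 0.05 (SE 0.15; adjusted p = 0.957 by edgeR) and Clk3 one of 0.04 ± 0.17 (SE). Srpk1, which phosphorylates SR proteins in the cytoplasm, had 114, 130.1 and 225 CPM in the GSK3326595 tumors, against 104, 79.3 and 145 CPM in the vehicle tumors, a fitted log2 difference of 0.51 (SE 0.34; adjusted p = 0.683 by edgeR), and the highest value was in GSK3326595 replicate 3. Leaving out that library gave 0.17 for Srpk1, and leaving out vehicle replicate 3 gave 0.81.

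Summed levels of some cell-type markers also differed between the groups without overlap, and their part in the values of the splicing genes was not tested. All 8 T cell markers were found and 5 passed the filter. The 8 summed to 5.52 to 16.2 CPM in GSK3326595 and 1.31 to 2.59 CPM in vehicle, with Cd3d at 0 in a library. DESeq2 called 4 of the 5 higher, beside 1.09% of all genes. Cd2, Cd28 and Cd3g lay at 0.408 CPM or less in every vehicle tumor. They passed the filter through the GSK3326595 tumors, so 4 of 5 is not a rate comparable with that of all genes. By edgeR 0 of the 5 were called after adjustment (smallest adjusted p = 0.455). All 6 stellate cell and fibroblast markers passed, at 512 to 738 CPM summed in GSK3326595 and 108 to 467 CPM in vehicle, with none at 0. Taken singly, 2 of the 6 were higher without overlap, the collagens Col1a2 and Col3a1, beside 6.72% of all genes. Col1a1, Lrat, Pdgfrb and Des overlapped. Both edgeR and DESeq2 called 0 of the 6 after adjustment. The 5 B cell markers, of which 3 passed, summed to 3.32 to 12.8 CPM in GSK3326595 and 1.97 to 3.37 CPM in vehicle. Their ranges thus overlapped, and Ms4a1 was at 0 in a library. DESeq2 called 1 of them, Ighm, higher, and edgeR called 0 after adjustment. Ighm, the heavy chain of IgM, had 10.4, 10.5 and 2.60 CPM in the GSK3326595 tumors, against 1.115, 1.19 and 2.06 CPM in the vehicle tumors. The 5 nuclear noncoding RNAs measured, Malat1 and Neat1 among them, overlapped between the groups in their summed level. Taken singly, 1 of them, Meg3, was lower without overlap, beside 7.66% of all genes. Meg3 had 109, 8.68 and 96.1 CPM in the GSK3326595 tumors, against 129, 158 and 165 CPM in the vehicle tumors (adjusted p = 0.715 by edgeR).

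**Figure D2:**
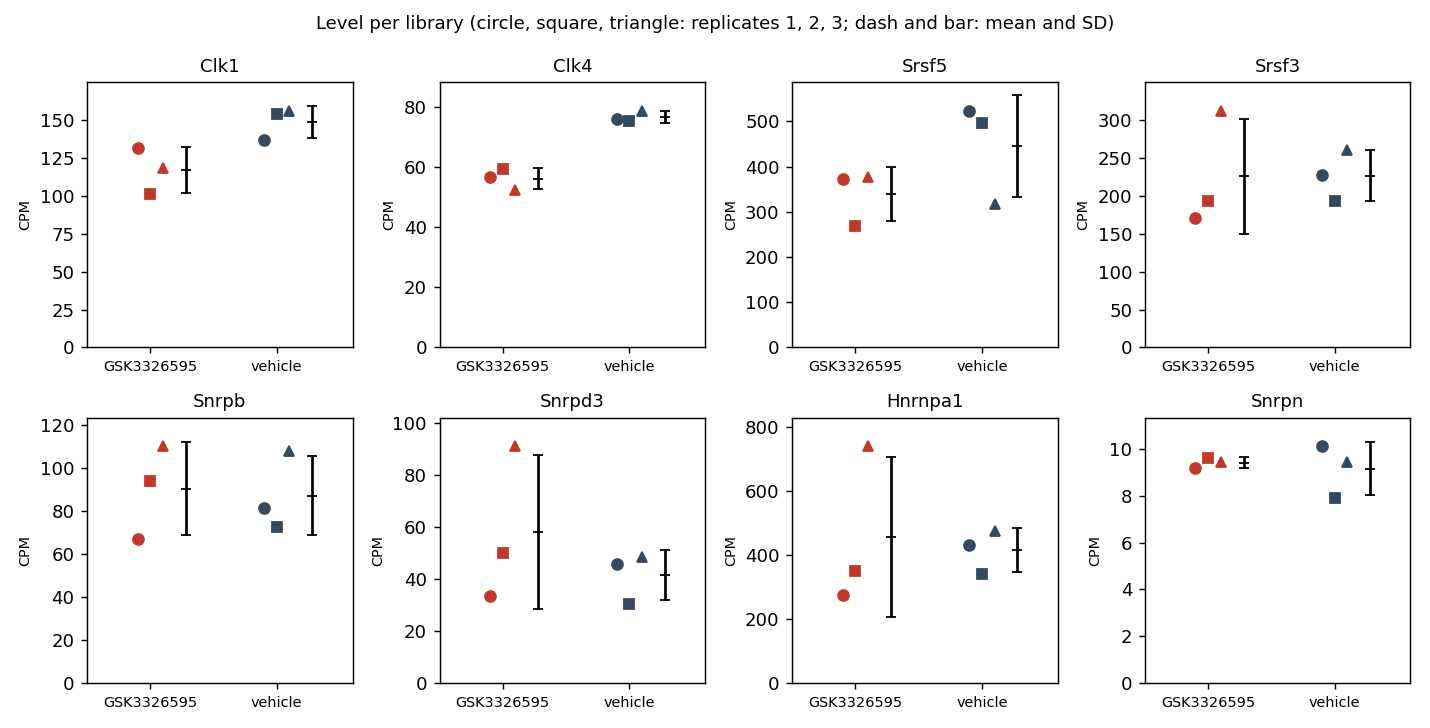
CPM of 8 of the genes in each library (circle, square and triangle for replicates 1, 2 and 3), with the mean and SD of 3 libraries beside them. Clk1 and Clk4 show no overlap between the groups, while Srsf3, Snrpb, Snrpd3 and Hnrnpa1 are highest in GSK3326595 replicate 3 and overlap.

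The Sm core, which forms the ring itself, had 0 of 8 genes past any threshold, 5 with a difference above 0 and 3 below, and a median log2 difference of 0.05. Snrpb (chr2:130171414-130179403, minus strand), which encodes SmB with its arginine-glycine tail, had 67.05, 93.7 and 110.0 CPM in the GSK3326595 tumors, against 81.2, 72.4 and 108 CPM in the vehicle tumors. The groups covered nearly the same range, and the fitted log2 difference of 0.05 (SE 0.25; adjusted p = 0.971 by edgeR) had a 95% interval of -0.54 to 0.64. Snrpd1, encoding the PRMT5 substrate SmD1, had 47.7, 52.0 and 99.7 CPM in the GSK3326595 tumors, against 53.1, 36.6 and 69.8 CPM in the vehicle tumors, a fitted log2 difference of 0.32 (SE 0.36; adjusted p = 0.837 by edgeR). The highest value was in GSK3326595 replicate 3 and the lowest in vehicle replicate 2, with the others between, and the difference of Snrpd1 was -0.074 once GSK3326595 replicate 3 was left out.

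Snrpd3 (chr10:75517551-75537381, plus strand), for SmD3, the third methylated ring protein, had 33.4, 50.0 and 91.1 CPM in the GSK3326595 tumors, against 45.8, 30.3 and 48.3 CPM in the vehicle tumors. GSK3326595 replicate 3 stood well above the other 5 tumors, and replicate 1 lay among the vehicle values. Its fitted log2 difference of 0.49 (SE 0.39; adjusted p = 0.741 by edgeR) was 0.03 without GSK3326595 replicate 3 and 0.77 without GSK3326595 replicate 1. Its highest library was 3.01 times its lowest, the widest range of the 34 genes. The exons of Snrpd3 share 232 bases with Gucd1 on the other strand, and the strand setting of the counting is not stated in the sources at hand.

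The ring proteins without such a tail gave smaller differences in size than Snrpd1 and Snrpd3. Their differences were larger in size than the 0.05 of Snrpb, which has the tail. Snrpd2 had a log2 difference of -0.08 ± 0.24 (SE), Snrpe of -0.06 ± 0.23, Snrpf of 0.19 ± 0.38 and Snrpg of -0.23 ± 0.28. Snrpg had 36.0, 37.2 and 62.0 CPM in the GSK3326595 tumors, against 48.3, 43.6 and 67.04 CPM in the vehicle tumors, so that the treated tumors held both the lowest and, after vehicle replicate 3, the next highest values. Opposite-strand exons of Ccdc38 cover 65.9% of the exon bases of Snrpf, but Ccdc38 averaged 36.2 expected counts a library, against 1122 for Snrpf.

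Snrpn, an imprinted gene for an Sm protein close to SmB that is best known from neurons, had 9.19, 9.64 and 9.45 CPM in the GSK3326595 tumors, against 10.1, 7.93 and 9.46 CPM in the vehicle tumors. These were the most even values of the Sm core, with the highest library at 1.28 times the lowest, and the fitted log2 difference of 0.04 (SE 0.21; adjusted p = 0.975 by edgeR) was within the spread. Of the 4 neuron markers, Snap25 was at 0 in all 6 libraries. Syt1, the 1 that passed the filter, reached 5.18 CPM in GSK3326595 replicate 2. The 4 summed to 0.193 to 5.89 CPM in GSK3326595 and 0.136 to 0.776 CPM in vehicle. Reads of Snrpn are uncertain in 2 ways: it is a near copy of Snrpb in its coding sequence, and 27.3% of its exon bases lie in Gm38393 on the same strand, which averaged 354 expected counts a library against 288 for Snrpn.

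The U1 snRNP, which recognises the 5′ splice site, holds the 70K, A and C proteins. Snrnp70, for the 70K protein, had 142, 157 and 215 CPM in the GSK3326595 tumors, against 156, 123 and 184 CPM in the vehicle tumors, a fitted log2 difference of 0.15 (SE 0.23; adjusted p = 0.897 by edgeR), with overlap. Snrpa, for the A protein, had 36.5, 50.1 and 66.7 CPM in the GSK3326595 tumors, against 55.8, 46.8 and 61.6 CPM in the vehicle tumors, a fitted log2 difference of -0.10 (SE 0.25; adjusted p = 0.948 by edgeR); this gene holds the E-boxes printed above. Snrpc, for the C protein, had a log2 difference of 0.01 ± 0.23 (SE), with a 95% interval of -0.54 to 0.57. The 3 genes were all highest in GSK3326595 replicate 3.

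Among the LSm proteins, Lsm2 and Lsm4 belong to the ring that binds U6, and Lsm10 and Lsm11 replace SmD1 and SmD2 in the U7 snRNP of histone mRNA processing. Lsm2 had 10.8, 27.4 and 23.3 CPM in the GSK3326595 tumors, against 11.9, 10.6 and 18.9 CPM in the vehicle tumors. GSK3326595 replicate 1 was with the lower vehicle tumors and replicates 2 and 3 above all of them. The fitted log2 difference of 0.57 (SE 0.40; adjusted p = 0.707 by edgeR), the highest of the members, was 0.36 without GSK3326595 replicate 2. Leaving out vehicle replicate 3 gave 0.90, and leaving out GSK3326595 replicate 1 gave 0.88, the 1 of these past an unadjusted p under 0.05.

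Lsm4, a PRMT5 substrate with an arginine-glycine tail, had 27.4, 30.9 and 40.5 CPM in the GSK3326595 tumors, against 37.2, 28.7 and 42.0 CPM in the vehicle tumors, a fitted log2 difference of -0.13 (SE 0.23; adjusted p = 0.92 by edgeR); the groups spanned nearly the same range. Lsm11, whose product binds the PRMT5 complex during assembly, had 8.83, 14.9 and 16.2 CPM in the GSK3326595 tumors, against 10.99, 10.5 and 14.9 CPM in the vehicle tumors, a fitted log2 difference of 0.14 (SE 0.30; adjusted p = 0.937 by edgeR). Lsm10 had a log2 difference of -0.03 ± 0.24 (SE). None of these 3 genes differed beyond the spread between replicates.

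SR proteins, which define exons and also escort mRNA from the nucleus, had 0 of 8 genes past any threshold; 6 differences were above 0, and the median was 0.08 on the log2 scale. Srsf3, the smallest SR protein and a regulator of hepatocyte differentiation in mice, had 171, 194 and 312 CPM in the GSK3326595 tumors, against 227, 193 and 259.9 CPM in the vehicle tumors. GSK3326595 replicate 3 was the highest and GSK3326595 replicate 1 the lowest of the 6 tumors, and the means nearly coincided at 226 ± 75.8 CPM in GSK3326595 and 227 ± 33.5 CPM in vehicle (SD, n = 3 each). The fitted log2 difference of -0.01 (SE 0.27; adjusted p = 0.998 by edgeR) changed sign in 8 of 14 alternative settings.

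Srsf5 stood apart from the family, with 371, 269.5 and 376 CPM in the GSK3326595 tumors, against 523, 497 and 316 CPM in the vehicle tumors. Vehicle replicates 1 and 2 were higher than the other 4 tumors, and vehicle replicate 3 lay within the treated range. The fitted log2 difference of -0.40 (SE 0.26; adjusted p = 0.682 by edgeR) ranged from -0.55 when vehicle replicate 3 was left out to -0.20 when GSK3326595 replicate 2 was. It was the 1 SR gene of 8 not highest in GSK3326595 replicate 3.

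Srsf10, a splicing repressor when dephosphorylated, had 101, 114 and 177 CPM in the GSK3326595 tumors, against 111, 88.5 and 128 CPM in the vehicle tumors, a fitted log2 difference of 0.26 (SE 0.26; adjusted p = 0.815 by edgeR). GSK3326595 replicate 3 was the highest, and without it the difference was -0.002. Srsf7 followed with 0.24 ± 0.28 (SE) and Srsf1, a known oncogenic SR protein and MYC target, with 0.15 ± 0.25. Srsf2, Srsf6 and Srsf11 differed by 0.08, 0.08 and 0.01 on the log2 scale, each smaller than its SE. Srsf2 shares exon bases on the other strand with Mfsd11 and Mettl23, at 556 and 237 expected counts a library against 5051 for Srsf2. The SR-like regulators Tra2a and Tra2b, which bind purine-rich exonic enhancers, had differences of 0.00 and 0.02 with SEs of 0.20 and 0.23.

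Of the factors that mark the 3′ end of the intron, Sf3b1, the U2 snRNP subunit at the branch point, had 319, 269 and 334 CPM in the GSK3326595 tumors, against 326, 303 and 348 CPM in the vehicle tumors. Its highest library was only 1.30 times its lowest, and the fitted log2 difference of -0.09 (SE 0.17; adjusted p = 0.928 by edgeR) had a 95% interval of -0.49 to 0.32. U2af2, which binds the polypyrimidine tract, had a log2 difference of 0.19 ± 0.23 (SE), with GSK3326595 replicate 3 highest.

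Hnrnpa1, an antagonist of SR proteins whose tail carries arginine-glycine motifs, had 276, 352 and 742 CPM in the GSK3326595 tumors, against 431, 342 and 476 CPM in the vehicle tumors. GSK3326595 replicate 3 was far above the other 5 tumors and GSK3326595 replicate 1 the lowest, so the treated mean of 456 CPM had an SD of 249.8 CPM, against 416 ± 68.1 CPM in vehicle. The fitted log2 difference of 0.13 (SE 0.39; adjusted p = 0.955 by edgeR) was -0.39 without GSK3326595 replicate 3. Hnrnpa2b1 had a log2 difference of 0.18 ± 0.27 (SE). Processed copies of Hnrnpa1 exist in the mouse genome, so its reads are uncertain.

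The assembly factors had their widest spread among the treated tumors. Smn1, for the SMN protein that binds the methylated Sm tails, had 7.29, 11.6 and 18.0 CPM in the GSK3326595 tumors, against 10.5, 8.27 and 10.3 CPM in the vehicle tumors, a fitted log2 difference of 0.35 (SE 0.35; adjusted p = 0.815 by edgeR). Coil, the Cajal body scaffold coilin, itself a PRMT5 substrate, had 9.15, 17.3 and 20.4 CPM in the GSK3326595 tumors, against 13.8, 11.6 and 13.7 CPM in the vehicle tumors, a fitted log2 difference of 0.26 (SE 0.32; adjusted p = 0.853 by edgeR); it was 0.53 without GSK3326595 replicate 1, past an unadjusted p under 0.05, and 0.04 without GSK3326595 replicate 3. Gemin5, the SMN complex subunit that recognises snRNAs, had 81.3, 138 and 169 CPM in the GSK3326595 tumors, against 117, 99.8 and 136 CPM in the vehicle tumors, a fitted log2 difference of 0.14 (SE 0.29; adjusted p = 0.933 by edgeR). In all 3 genes GSK3326595 replicate 1 was the lowest and GSK3326595 replicate 3 the highest of the 6 tumors, so the treated group enclosed the vehicle group. Without GSK3326595 replicate 3 the difference was -0.013 for Smn1 and -0.084 for Gemin5.

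Levels were compared between genes per kilobase of the longest principal transcript in GENCODE M21, as the mean over all 6 libraries. Hnrnpa2b1 (339.8 CPM per kb), Srsf5 (250.2) and Hnrnpa1 (227) led. The lowest levels were those of Lsm11 (1.97 CPM per kb), Snrpn (4.48), Coil (4.59), Lsm10 (7.93) and Smn1 (8.99). Within the Sm core, whose products enter the ring in equal number, the level per kb was 98.3 for Snrpe, 76.3 for Snrpb, 69.7 for Snrpd1, 48.7 for Snrpd2, 46.5 for Snrpg, 42.5 for Snrpf and 16.4 for Snrpd3. The length used for Snrpd3 was 3036 bases, and a shorter transcript would raise its level per kb.

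Tumors of the same group differed from each other, and in the same direction in many of the splicing genes. 25 of the 34 genes were highest in GSK3326595 replicate 3, while 21.3% of all tested genes were. 15 were lowest in GSK3326595 replicate 1 and 12 in vehicle replicate 2, beside 20.5% and 13.6% of all tested genes. The median deviation of the members from their own mean over the 6 libraries, in log2 units, was -0.29, -0.04 and 0.38 in GSK3326595 replicates 1, 2 and 3 and -0.01, -0.26 and 0.21 in vehicle replicates 1, 2 and 3. The library medians thus spread by an SD of 0.29 within groups, beside a median difference of 0.06 between them. The share of all counts taken by the members, with no TMM scaling, put the libraries in a like order, with 0.607% in GSK3326595 replicate 3, 0.368% in GSK3326595 replicate 1 and 0.350% in vehicle replicate 2.

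**Figure D3:**
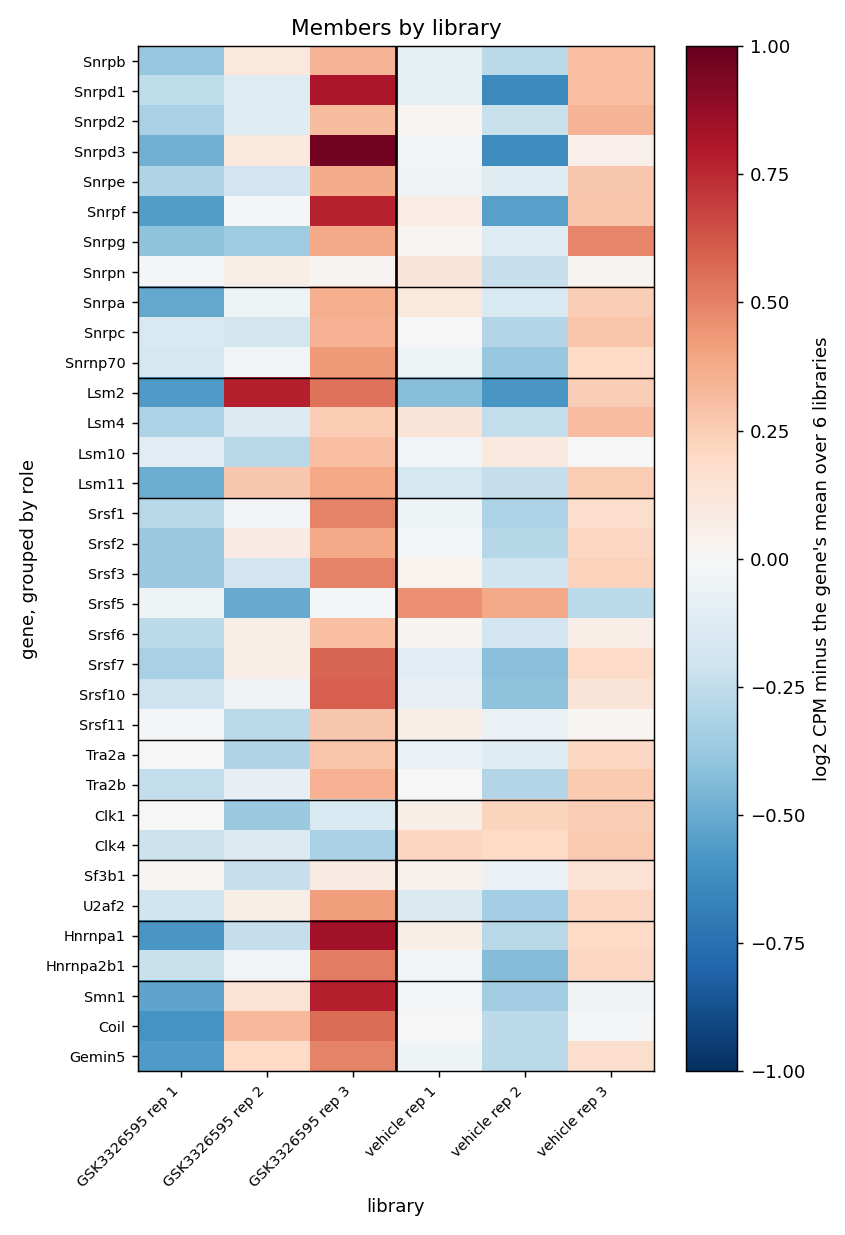
Log2 CPM of each of the 34 genes minus its mean over the 6 libraries, with GSK3326595 libraries left of the thick line, vehicle libraries right of it and genes grouped by role. Most rows are red in GSK3326595 replicate 3, where 25 genes are highest, and blue in GSK3326595 replicate 1 and vehicle replicate 2; Clk1, Clk4 and Srsf5 do not follow.

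The roles differed in how far they followed this order. The median deviation of the Sm core was -0.35, -0.07 and 0.38 in GSK3326595 replicates 1, 2 and 3 and -0.01, -0.25 and 0.29 in vehicle replicates 1, 2 and 3. That of the SR proteins was -0.27, -0.03 and 0.44 in GSK3326595 replicates 1, 2 and 3 and 0.01, -0.24 and 0.15 in vehicle replicates 1, 2 and 3, with the widest gap to the Sm core in vehicle replicate 3. The pair of CLK kinases among the members, Clk1 and Clk4, was at -0.11, -0.26 and -0.24 in GSK3326595 replicates 1, 2 and 3 and 0.14, 0.21 and 0.26 in vehicle replicates 1, 2 and 3. GSK3326595 replicate 3, where most members peaked, was thus below 0 for this pair. Clk2 and Clk3, which are not members, were highest in GSK3326595 replicate 3. Members not highest in GSK3326595 replicate 3 were Clk1, Clk4, Snrpd2, Snrpg, Snrpn, Lsm2, Lsm4, Srsf5 and Sf3b1.

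Proliferation and hepatocyte markers differed between the same tumors, and their part in the spread of the splicing genes was not tested. All 8 proliferation markers were found and none was at 0; they summed to 1220.0, 1277 and 2546 CPM in GSK3326595 replicates 1, 2 and 3 and 1863, 1429.9 and 2268 CPM in vehicle replicates 1, 2 and 3. The libraries with the lowest and highest members were thus also low and high in these markers. Of 8 hepatocyte markers 7 were found, all above 0, with a sum of 24608, 25843 and 8636 CPM in GSK3326595 replicates 1, 2 and 3 and 23117, 25941 and 15225 CPM in vehicle replicates 1, 2 and 3. GSK3326595 replicate 3, with the highest members, had the lowest hepatocyte sum. The share of mitochondrially encoded counts was 5.77% to 6.60% in GSK3326595 and 5.55% to 6.63% in vehicle.

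**Figure D4:**
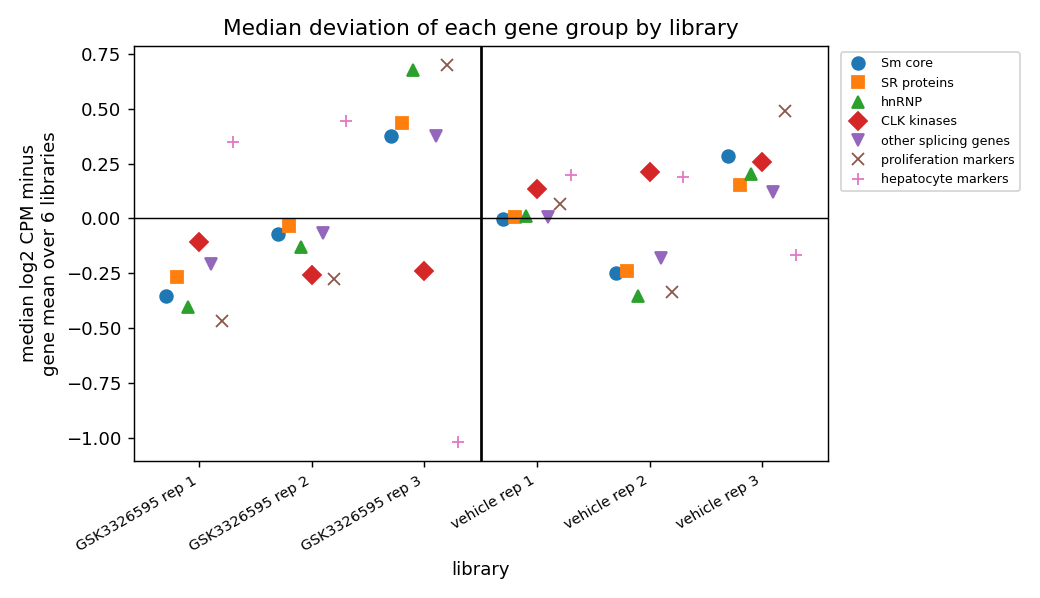
Median over each gene group of log2 CPM minus the gene's mean over 6 libraries, for each library, GSK3326595 left of the line and vehicle right of it. Sm core, SR proteins, hnRNP genes, other splicing genes and proliferation markers lie lowest in GSK3326595 replicate 1 and highest in GSK3326595 replicate 3. The CLK kinases plotted, Clk1 and Clk4 only, do not, and hepatocyte markers are at -1.02 in GSK3326595 replicate 3.

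Other genes of the splicing pathway, 89 in all, were read beside the members. They were listed by role, with earlier results of these data known. By edgeR 0 were higher and 0 lower after adjustment, and DESeq2 and limma-voom called 0. At an unadjusted edgeR p under 0.05, 0 were higher, beside 5.45% of all genes, and 1 was lower, beside 3.81%. The groups did not overlap in 1 gene that was higher, Gemin8, beside 6.72% of all genes. They did not overlap in 2 that were lower, Prpf6 and Srsf9, beside 7.66%. Of the 89 genes 57 had a difference above 0 and 32 below, with a median of 0.04 on the log2 scale. In GSK3326595 replicate 3, 67 of 89 were highest. The 1 gene past the unadjusted threshold was Prpf6, a bridging subunit of the tri-snRNP. Prpf6 had 57.7, 55.8 and 68.3 CPM in the GSK3326595 tumors, against 105, 102 and 88.0 CPM in the vehicle tumors. All treated values lay below all vehicle values, with a fitted log2 difference of -0.70 (SE 0.16; adjusted p = 0.455 by edgeR), an unadjusted p of 0.00395 and a DESeq2 adjusted p of 0.0536. Without any 1 library the difference of Prpf6 stayed between -0.78 and -0.59.

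The 13 assembly genes, with Prmt5 and its partners Wdr77 and Clns1a among them, had 11 differences above 0 and a median of 0.18 on the log2 scale. Gemin4, of the SMN complex, had 38.1, 60.2 and 86.0 CPM in the GSK3326595 tumors, against 47.9, 39.4 and 54.9 CPM in the vehicle tumors, a fitted log2 difference of 0.38 (SE 0.31; adjusted p = 0.753 by edgeR). The difference of Gemin4 was 0.071 without GSK3326595 replicate 3 and 0.62 without GSK3326595 replicate 1, there past an unadjusted p under 0.05. Gemin2, which holds the Sm proteins before the ring closes, had 13.8, 18.4 and 17.7 CPM in the GSK3326595 tumors, against 20.6, 21.4 and 18.1 CPM in the vehicle tumors, a fitted log2 difference of -0.27 (SE 0.20; adjusted p = 0.728 by edgeR), which was -0.15 without GSK3326595 replicate 1. Gemin8 did not overlap between the groups, though GSK3326595 replicate 2 and vehicle replicate 3 nearly tied, at 6.38, 5.58 and 6.35 CPM in the GSK3326595 tumors, against 5.42, 4.59 and 5.58 CPM in the vehicle tumors, a fitted log2 difference of 0.23 (SE 0.23; adjusted p = 0.804 by edgeR). The 13 genes of the tri-snRNP had 11 differences above 0 (median 0.18), and Eftud2, the GTPase of the U5 snRNP, had 69.8, 127 and 134 CPM in the GSK3326595 tumors, against 80.5, 65.5 and 107 CPM in the vehicle tumors, a fitted log2 difference of 0.39 (SE 0.30; adjusted p = 0.738 by edgeR), with 0.63 and an unadjusted p under 0.05 without GSK3326595 replicate 1, and 0.23 without vehicle replicate 2.

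The remaining lists had median log2 differences of 0.04 for 14 genes of the U2 snRNP and 3′ splice site, -0.01 for 24 hnRNPs and other regulators, 0.11 for 8 of the minor spliceosome, 0.05 for 11 SR proteins and SR kinases and -0.02 for 6 LSm proteins. Of these, Srsf9 was lower in all 3 treated tumors, at 19.1, 22.0 and 17.2 CPM in the GSK3326595 tumors, against 23.5, 24.9 and 22.7 CPM in the vehicle tumors, a fitted log2 difference of -0.28 (SE 0.18; adjusted p = 0.671 by edgeR), and -0.19 without GSK3326595 replicate 3. Srsf12 was at 0.677, 0.248 and 1.84 CPM in the GSK3326595 tumors, against 0.191, 0.0680 and 0.477 CPM in the vehicle tumors, a fitted log2 difference of 1.86 (SE 0.90; adjusted p = 0.575 by edgeR), and both groups held values under 1 CPM; it was 0.90 without GSK3326595 replicate 3 and past an unadjusted p under 0.05 without GSK3326595 replicate 2 or vehicle replicate 3. Rbmx, an hnRNP encoded on the X chromosome, had 58.4, 41.1 and 48.3 CPM in the GSK3326595 tumors, against 67.5, 56.0 and 60.4 CPM in the vehicle tumors, a fitted log2 difference of -0.32 (SE 0.19; adjusted p = 0.646 by edgeR), and the groups overlapped. Rbmx was at -0.15 without GSK3326595 replicate 2 and at -0.46, past an unadjusted p under 0.05, without GSK3326595 replicate 1. Hnrnpa0 had 34.4, 43.2 and 60.9 CPM in the GSK3326595 tumors, against 62.0, 60.8 and 56.9 CPM in the vehicle tumors, a fitted log2 difference of -0.38 (SE 0.23; adjusted p = 0.66 by edgeR). Its groups overlapped through GSK3326595 replicate 3, and without that library the difference was -0.61, past an unadjusted p under 0.05. Of the lists not yet exemplified, Lsm6 of the ring on U6 had 18.0, 22.7 and 32.4 CPM in the GSK3326595 tumors, against 33.5, 31.2 and 26.6 CPM in the vehicle tumors, a fitted log2 difference of -0.32 (SE 0.26; adjusted p = 0.738 by edgeR). Sf3a2, of the U2 snRNP, had 21.7, 32.5 and 40.7 CPM in the GSK3326595 tumors, against 24.4, 23.7 and 30.2 CPM in the vehicle tumors, a fitted log2 difference of 0.28 (SE 0.27; adjusted p = 0.798 by edgeR). Zrsr2, which reads the 3′ splice site of minor introns, had 20.4, 18.2 and 25.5 CPM in the GSK3326595 tumors, against 21.1, 16.9 and 15.6 CPM in the vehicle tumors, a fitted log2 difference of 0.26 (SE 0.22; adjusted p = 0.764 by edgeR). The groups overlapped in all 3 genes. Without GSK3326595 replicate 3 the difference was -0.57 for Lsm6, past an unadjusted p under 0.05, 0.07 for Sf3a2 and 0.13 for Zrsr2, and without GSK3326595 replicate 1 that of Lsm6 was -0.15. None of these genes differed by the adjusted test.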

How the data were processed

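Stranded libraries were prepared from total RNA, per the labels' protocols. The authors deposited expected counts per gene with no scaling between libraries. The submitters' processing notes name cutadapt, STAR, Picard, RSEM and build mm10; their versions, the annotation and the strand setting are not stated in the sources at hand. Of the deposited values, 12.3% were not exact whole numbers, and all were rounded. Genes kept by filterByExpr (minimum count 10) entered edgeR 4.0.16 in R 4.3.3, with TMM factors and the quasi-likelihood F test (GSK3326595 over vehicle, two-sided), and p-values were adjusted by Benjamini-Hochberg over 17012 genes at a threshold of 0.05. The SE was derived from the fitted difference and its F statistic, and the 95% interval from the same F with its degrees of freedom. DESeq2 1.42.0 and voom of limma 3.58.1 served as alternatives. The edgeR, DESeq2 and voom code was tested on simulated counts. Coordinates are from GENCODE M21 (GRCm38, 1-based), matched by Ensembl ID for all 34 genes, 25 of them with the same ID version. Replicate numbers were not used as pairs. By rule, values per library are given for members tied to PRMT5 as substrates or partners (Snrpb, Snrpd1, Snrpd3, Lsm4, Lsm11 and Coil), the 5 smallest p in each direction, Snrpn, Clk1 and Srsf3, and, of the other splicing genes, Prmt5 and up to 2 of smallest p per direction and list; further members and Clk2, Clk3 and Gemin8 were named after their values were seen. The members and lists were chosen with earlier results of these data known.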

Additional observations from a re-analysis of the deposited data

How the results depend on the processing

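The counts of 0 members higher and 0 lower after adjustment held under all 14 alternatives: RLE scaling, no scaling, no filter, a filter of 1 CPM in 3 libraries, DESeq2, limma-voom, the replicate block, removal of mitochondrially encoded and rRNA genes, and each library left out. Members lower at an unadjusted p under 0.05 numbered 1, against 0 with no scaling beyond library totals, which moved the median of all genes to a log2 difference of 0.12; without 1 library they ranged from 0 to 2, and members higher likewise from 0 to 2. Without 1 library, other splicing genes past that p numbered 0 to 4 on the higher side and 1 to 3 on the lower. The replicate block, with numbers that did not pair the tumors (correlations of same-numbered deviations -0.073, 0.072 and 0.323), gave 1 other splicing gene higher against 0 and a median of 0.045 over the members; it changed no other count. The causes were not tested. Over all 14 alternatives 7 members kept their sign, namely Clk1, Clk4, Srsf5, Snrpd3, Lsm2, U2af2 and Coil, and 27 did not; none of these was called in any. With a library left out, the log2 differences that changed sign ranged as follows: Clk3 -0.024 to 0.15, Gemin5 -0.084 to 0.39, Hnrnpa1 -0.39 to 0.39, Hnrnpa2b1 -0.041 to 0.39, Lsm10 -0.20 to 0.14, Lsm11 -0.012 to 0.36, Lsm4 -0.29 to 0.042, Sf3b1 -0.14 to 0.052, Smn1 -0.013 to 0.62, Snrnp70 -0.024 to 0.34, Snrpa -0.32 to 0.093, Snrpb -0.097 to 0.28, Snrpc -0.16 to 0.21, Snrpd1 -0.074 to 0.62, Snrpd2 -0.27 to 0.12, Snrpe -0.28 to 0.11, Snrpf -0.22 to 0.45, Snrpg -0.52 to 0.018, Snrpn -0.058 to 0.11, Srsf1 -0.079 to 0.32, Srsf10 -0.002 to 0.44, Srsf11 -0.12 to 0.18, Srsf2 -0.089 to 0.26, Srsf3 -0.30 to 0.16, Srsf6 -0.047 to 0.21, Srsf7 -0.009 to 0.45, Tra2a -0.14 to 0.19, Tra2b -0.15 to 0.21. With all libraries, the sign changed under RLE scaling for Srsf3 0.009; under library totals for Snrpd2 0.002, Snrpe 0.03, Lsm10 0.067, Srsf3 0.086, Sf3b1 0.004; with no filter for Lsm10 0.003, Srsf3 0.032; with 1 CPM in 3 libraries for Lsm10 0.019, Srsf3 0.047; by DESeq2 for Srsf3 0.009; by limma-voom for Srsf11 -0.009, Tra2a -0.013; under the block for Srsf11 -0.009, Tra2a -0.012; and without mitochondrially encoded and rRNA genes for Tra2a -0.000. With 3 libraries a group, differences within the intervals given may go undetected.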
